A study of Mus musculus and Macaca nemestrina with 20 samples.

Results

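The genes described here make, store and clear serotonin and histamine: the synthesis enzymes Tph1, Ddc and Hdc, the carriers Slc18a2 and Slc6a4, and the breakdown or diverting enzymes Maoa, Maob, Hnmt and Hal. They were followed in bulk RNA sequencing of dorsal root ganglia (DRG), the clusters of sensory neuron cell bodies beside the spinal cord, in mice and in pig-tailed monkeys (Macaca nemestrina). All 9 symbols were found among the 29766 genes of the mouse table, and 8 of them, in capitals, among the 35194 genes of the monkey table. MAOA was not analysed here in the monkey. The list was chosen on the knockout against flox results of these same libraries, in which Tph1, Hal and Hdc stood out, so the mouse genotype differences of the 9 genes are given below as a description without a test. What was tested is whether those differences varied between the batches, the other genes of the same pathways, and the same genes in the monkey.

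The mouse libraries were 7 labelled ADAM17 knockout and 7 labelled flox. Batch 1 held knockout libraries 1 to 4 and flox libraries 1 to 3, and batch 2 held knockout libraries 5 to 7 and flox libraries 4 to 7. ADAM17 is a membrane protease that releases cytokines and growth factors from the cell surface; the labels used here give no Cre line, strain, age, deleted exons or number of mice per library. The monkey libraries were 3 of SADBE (squaric acid dibutyl ester, a chemical that provokes contact allergy) and 3 of vehicle, taken from ganglia that serve the treated skin.

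In serotonin synthesis outside the brain, Tph1 hydroxylates tryptophan in the rate-limiting step and Ddc removes the carboxyl group. Slc18a2, also called VMAT2, loads serotonin, histamine and catecholamines into vesicles, Slc6a4 takes serotonin back up across the cell membrane, and the mitochondrial oxidases Maoa and Maob break it down. Histamine is made from histidine by Hdc and inactivated by Hnmt, which methylates it, while Hal sends histidine the other way by deaminating it to urocanate. Both amines act on sensory fibres of the skin and are classical mediators of itch, and mast cells, basophils, platelets and enteroendocrine cells are their best known sources.

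Among the enzymes of the list, Tph1, Hdc and Hal had the largest genotype differences, so the start regions of these 3 genes are shown. Tph1 lies on chromosome 7 (46644641 to 46672537, minus strand), Hdc on chromosome 2 (126593667 to 126619299, minus strand) and Hal on chromosome 10 (93488768 to 93519304, plus strand) of GRCm38. Each sequence is a RefSeq promoter window of GRCm38.p6, 250 bases before to 50 bases after an annotated start, printed 5′ to 3′ on the gene's own strand. Capitals mark matches on either strand to the AP-1 letters TGANTCA (N, any base), the TATA letters TATAAA and the letters CCAAT. The CRE letters TGACGTCA, the STAT letters TTCNNNGAA and the E-box letters CACGTG were searched as well. Tph1 has 2 annotated starts.
Tph1, upstream start (chr7:46672488-46672787, minus strand): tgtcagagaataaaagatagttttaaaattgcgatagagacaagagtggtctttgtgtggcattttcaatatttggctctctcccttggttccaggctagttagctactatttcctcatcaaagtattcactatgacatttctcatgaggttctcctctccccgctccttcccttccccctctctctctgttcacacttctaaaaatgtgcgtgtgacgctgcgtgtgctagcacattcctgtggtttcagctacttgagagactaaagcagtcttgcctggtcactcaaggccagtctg
Tph1, downstream start (chr7:46667328-46667627, minus strand): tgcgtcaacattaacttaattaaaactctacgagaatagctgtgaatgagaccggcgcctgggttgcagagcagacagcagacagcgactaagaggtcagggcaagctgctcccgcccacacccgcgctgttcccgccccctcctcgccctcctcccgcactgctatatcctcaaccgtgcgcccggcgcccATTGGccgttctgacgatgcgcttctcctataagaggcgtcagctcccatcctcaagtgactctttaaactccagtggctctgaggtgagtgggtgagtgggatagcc
Hdc (chr2:126618629-126618928, minus strand): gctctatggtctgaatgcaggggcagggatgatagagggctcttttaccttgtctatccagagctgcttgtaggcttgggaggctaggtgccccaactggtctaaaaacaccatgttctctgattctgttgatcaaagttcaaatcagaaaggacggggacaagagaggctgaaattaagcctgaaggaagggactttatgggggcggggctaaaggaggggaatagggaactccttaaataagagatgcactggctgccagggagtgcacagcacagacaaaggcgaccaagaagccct
Hal (chr10:93488518-93488817, plus strand): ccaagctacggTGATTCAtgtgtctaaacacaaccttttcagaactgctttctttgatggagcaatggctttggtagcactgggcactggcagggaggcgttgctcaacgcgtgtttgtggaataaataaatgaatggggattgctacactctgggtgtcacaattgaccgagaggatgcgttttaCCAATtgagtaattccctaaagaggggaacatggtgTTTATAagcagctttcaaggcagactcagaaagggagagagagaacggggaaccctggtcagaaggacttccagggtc

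The Hal window held a match to the letters TGANTCA, in the form TGATTCA, at -239, counted in bases from the start. It also held a CCAAT match at -64 and a TATA match on the opposite strand at -28. These letters occurred in 7.81% (TGANTCA), 37.4% (CCAAT) and 13.6% (TATAAA) of the 32851 windows of the table. The downstream Tph1 window held 1 CCAAT match, on the opposite strand, at -58. The upstream Tph1 window and the Hdc window held none of the 6 sets of letters, of which the STAT, E-box and CRE letters occurred in 8.30%, 7.15% and 1.79% of all windows. A match of letters describes the sequence only, and the deposited tables give values per gene, so the starts in use were not measured.

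Levels below are the deposited TPM (transcripts per 1e6 transcripts, which corrects for transcript length), and fold changes come from the estimated counts. Library totals ran to 12.1 to 14.7 M counts (M, 1e6; knockout) against 46.9 to 52.1 M (flox) in batch 1, and to 27.9 to 30.8 M (knockout) against 30.9 to 36.0 M (flox) in batch 2. The deposited TPM columns of the mouse fell short of their nominal sum: with 1000 as that sum, they reached 787 to 834 (knockout) against 601 to 797 (flox) in batch 1, and 976 to 979 (knockout) against 954 to 979 (flox) in batch 2. Mouse TPM are therefore not on quite the same scale in all libraries. Adam17 itself averaged 7.25 ± 1.45 TPM in knockout and 7.18 ± 1.51 TPM in flox libraries (SD, n = 7 each), and a value for the whole gene does not check a deletion whose place is not given. In knockout libraries 6 and 7 the summed TPM of 4 Y-linked genes was 59.9 and 66.8, against 1.11 to 3.31 in each of the other 12 mouse libraries, so results are also given without these libraries where they moved.

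Across all genes, edgeR's quasi-likelihood test with batch in the model called 15.5% of 15654 tested genes between knockout and flox at a Benjamini-Hochberg adjusted p under 0.05, 7.97% of them higher and 7.51% lower in knockout. All 9 genes of the list passed the filter on low counts. By the same rule 5 of them were called higher (Tph1, Hdc, Slc6a4, Slc18a2 and Maoa), 1 was called lower (Hal) and 3 were not called (Ddc, Maob and Hnmt); since that contrast helped to choose the list, nothing is read from this count. The median log2 fold change was 0.49 over the 9 genes and -0.01 over all genes tested. Tph1 passed the filter through its knockout libraries and Hal through its flox libraries, so neither could have passed with a low value in both genotypes.

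**Figure D1:**
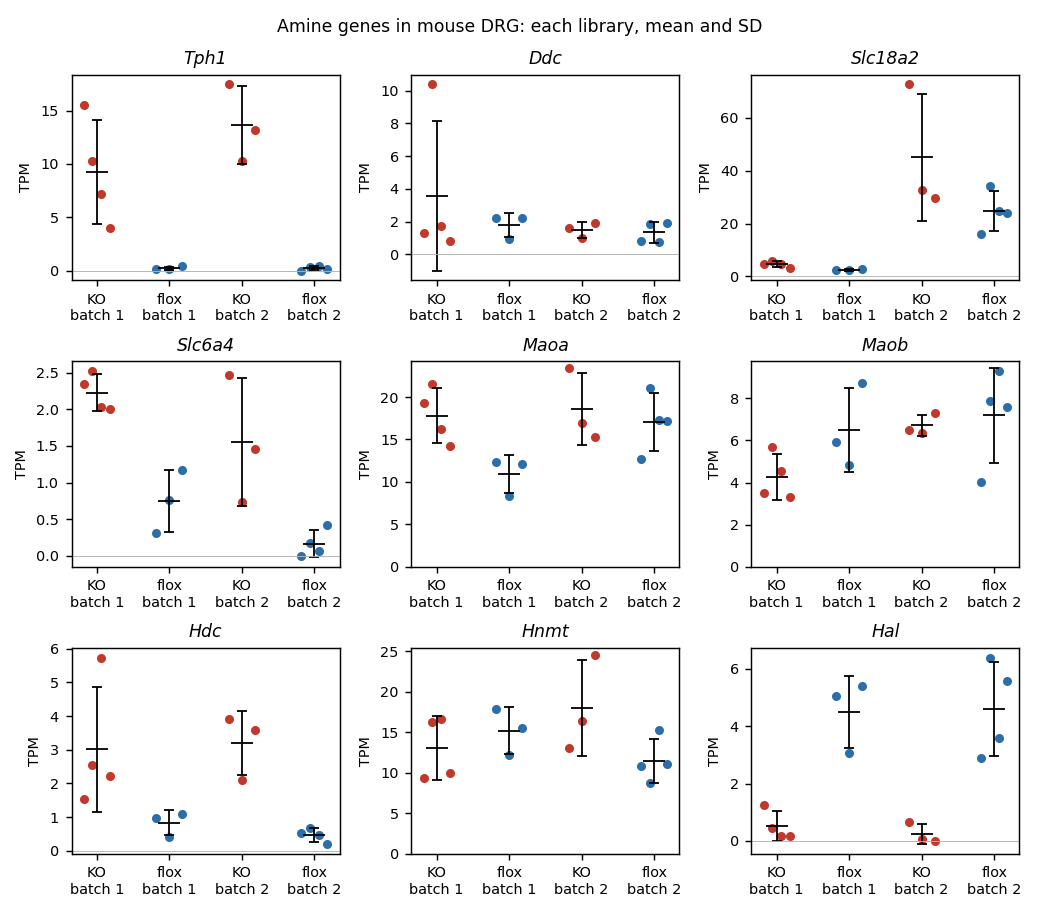
Deposited TPM of the 9 genes in each mouse library, by genotype and batch; points are libraries, the long tick is the mean and the bar 1 SD (knockout n = 4 and flox n = 3 in batch 1, knockout n = 3 and flox n = 4 in batch 2). In both batches every knockout library lies above every flox library for Tph1, Slc6a4 and Hdc, and below every flox library for Hal, while Slc18a2 is far higher in batch 2 than in batch 1 in both genotypes.

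Tph1, which starts serotonin synthesis, was the gene of the list with the largest difference. Knockout libraries 1 to 4 had 15.5, 10.3, 7.17 and 3.98 TPM, against 0.145, 0.113 and 0.393 TPM in flox libraries 1 to 3 of the same batch. Knockout libraries 5 to 7 had 17.5, 10.3 and 13.1 TPM, against 0, 0.314, 0.406 and 0.164 TPM in flox libraries 4 to 7. Every knockout library was far above every flox library, and the groups did not overlap in either batch. Behind these levels were 84.3 to 533 estimated counts per library in knockout and 0 to 21.7 in flox, where 0 counts in flox library 4 allow up to 0.0971 CPM (counts per 1e6 counts of the library; a floor of 3 counts; intervals and floors of this kind cover counting error only). The log2 fold change was 6.07 ± 0.50 (SE), with 5.93 ± 0.67 in batch 1 and 6.18 ± 0.62 in batch 2.

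Tph2, the isoenzyme of serotonin neurons in the brain, stayed at 0.0179 to 0.448 TPM in knockout and 0.0631 to 0.605 TPM in flox libraries. Tph1 made up 94.9% to 99.9% of the summed TPM of both hydroxylases in each knockout library, against 0% to 77.2% in flox libraries. The hydroxylase transcripts in knockout ganglia were thus almost all Tph1, while in flox ganglia both were low. In a bulk sample, more cells of a type and more RNA per cell cannot be told apart, and the same holds for fewer cells and less RNA.

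Ddc, which completes serotonin synthesis and also serves dopamine synthesis, did not follow Tph1. Its levels were 1.33, 10.4, 1.74, 0.826, 1.58, 0.978 and 1.90 TPM in knockout libraries 1 to 7, against 2.22, 0.919, 2.20, 0.839, 1.87, 0.746 and 1.89 TPM in flox libraries 1 to 7. The groups overlapped almost entirely apart from knockout library 2. The log2 fold change was 0.49 ± 0.43 with all libraries and -0.02 ± 0.35 without knockout library 2. That library was also the only mouse library with more than a trace of Dbh, the noradrenaline-making enzyme of sympathetic neurons, at 6.10 TPM, against 0 to 0.185 TPM in the other 13. The part of Dbh-expressing cells in the Ddc value was not tested.

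Slc18a2 differed widely in level between batches, in both genotypes. Batch 1 gave 4.58, 5.83, 4.69 and 3.16 TPM for the knockout libraries and 2.38, 2.28 and 2.81 TPM for the flox libraries, without overlap. Batch 2 gave 72.8, 32.8 and 29.6 TPM for the knockout libraries and 16.1, 34.1, 24.8 and 24.0 TPM for the flox libraries, where flox library 5 lay above knockout libraries 6 and 7. Its mean CPM in batch 2 was 7.34 times that in batch 1 in knockout and 6.60 times that in batch 1 in flox. The genotype log2 fold change was 0.83 ± 0.17, with 0.66 ± 0.21 in batch 1 and 0.96 ± 0.27 in batch 2. Without knockout library 5, the highest, it was 0.63 ± 0.14.

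Th, which makes the catecholamines that Slc18a2 also carries, had another pattern across the same batches. Th ranged over 17.0 to 66.3 TPM (knockout) against 23.9 to 57.8 TPM (flox) in batch 1, and over 24.9 to 80.6 TPM (knockout) against 155 to 255 TPM (flox) in batch 2. The higher Slc18a2 of batch 2 was thus seen in both genotypes, and the higher Th in flox libraries only by range. The log2 fold change of Th, knockout over flox, was -1.92 ± 0.31 in batch 2 alone, where edgeR called it (adjusted p = 0.00471). It was -0.25 ± 0.45 in batch 1 alone and -1.07 ± 0.40 over both batches (adjusted p = 0.831 and 0.0841 in edgeR), not called. Its interaction with batch was -1.72 ± 0.61 (log2, batch 2 minus batch 1, adjusted p = 0.205 in edgeR) and was not called either. The labels used here give the batches as numbers only.

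Slc6a4, the serotonin transporter, was low in all ganglia and higher in knockout within each batch. Batch 1 gave 2.35, 2.52, 2.03 and 2.00 TPM for the knockout libraries and 0.316, 0.764 and 1.17 TPM for the flox libraries. Batch 2 gave 2.47, 0.730 and 1.46 TPM for the knockout libraries and 0, 0.178, 0.0606 and 0.425 TPM for the flox libraries. The groups did not overlap within a batch, although the lowest knockout library of batch 2 lay below the highest flox library of batch 1. The log2 fold change was 2.30 ± 0.58, with 1.36 ± 0.46 in batch 1 and 3.32 ± 0.94 in batch 2. In batch 2 the flox side rested on 0 to 28 estimated counts per library.

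The monoamine oxidases, a neighbouring gene pair on the X chromosome (Maoa 16619698 to 16687818, plus strand; Maob 16709282 to 16817366, minus strand), differed little. For Maoa, batch 1 gave 19.3, 21.6, 16.2 and 14.2 TPM for the knockout libraries and 12.3, 8.34 and 12.1 TPM for the flox libraries, without overlap. Batch 2 gave 23.4, 17.0 and 15.3 TPM for the knockout libraries and 12.7, 21.1, 17.3 and 17.2 TPM for the flox libraries, with overlap. Its log2 fold change was 0.40 ± 0.11 over both batches, 0.53 ± 0.14 in batch 1 and 0.24 ± 0.15 in batch 2.

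Maob ranged from 3.31 to 7.29 TPM in knockout (median 5.67) and from 4.01 to 9.29 TPM in flox libraries (median 7.61), and the groups overlapped. Its log2 fold change was -0.36 ± 0.20, with -0.81 ± 0.23 in batch 1 and 0.04 ± 0.26 in batch 2. The balance of the pair therefore differed between genotypes in batch 1 only by range: Maoa was 78.1% to 84.5% of the summed TPM of both oxidases in knockout against 58.2% to 67.5% in flox libraries. The ranges of batch 2 overlapped, with 67.8% to 78.2% in knockout against 65.1% to 76.0% in flox libraries. Without knockout libraries 6 and 7 the log2 fold changes were 0.51 (Maoa) and -0.58 (Maob).

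Hdc, the only enzyme that makes histamine, was higher in every knockout library. Batch 1 gave 1.53, 2.56, 5.74 and 2.22 TPM for the knockout libraries and 0.974, 0.422 and 1.11 TPM for the flox libraries. Batch 2 gave 3.92, 2.11 and 3.58 TPM for the knockout libraries and 0.543, 0.680, 0.470 and 0.192 TPM for the flox libraries. No knockout library overlapped the flox range in either batch or between batches. The log2 fold change was 2.26 ± 0.37, with 1.65 ± 0.47 in batch 1 and 2.87 ± 0.49 in batch 2.

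Hnmt, which inactivates histamine inside cells, changed its order between batches. Batch 1 gave 9.36, 16.3, 16.6 and 10.03 TPM for the knockout libraries and 17.9, 12.1 and 15.5 TPM for the flox libraries. Batch 2 gave 13.1, 16.5 and 24.6 TPM for the knockout libraries and 10.8, 8.73, 15.3 and 11.0 TPM for the flox libraries. The groups overlapped in both batches, and the log2 fold change was -0.39 ± 0.21 in batch 1, 0.74 ± 0.29 in batch 2 and 0.19 ± 0.23 over both. Without knockout libraries 6 and 7 it was -0.22 ± 0.19, so its sign turned.

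Hal, histidine ammonia-lyase, went the other way from Hdc. Batch 1 gave 1.26, 0.444, 0.155 and 0.169 TPM for the knockout libraries and 5.04, 3.07 and 5.41 TPM for the flox libraries. Batch 2 gave 0.643, 0.0582 and 0 TPM for the knockout libraries and 2.90, 6.40, 3.60 and 5.58 TPM for the flox libraries. The highest knockout library was below the lowest flox library, and the flox ranges of both batches overlapped. Knockout libraries held 0 to 33.9 estimated counts of Hal and flox libraries 167 to 674; the 0 counts of knockout library 7 allow up to 0.108 CPM. The log2 fold change was -3.51 ± 0.53, with -2.84 ± 0.44 in batch 1 and -4.32 ± 0.82 in batch 2, and it was -2.87 ± 0.35 without knockout libraries 6 and 7, the lowest libraries of batch 2.

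By mean level over both batches, which TPM allows to be compared between genes, the order in knockout libraries was Slc18a2 (21.9 ± 25.8 TPM), Maoa (18.1 ± 3.40), Hnmt (15.2 ± 5.14), Tph1 (11.1 ± 4.69), Maob (5.31 ± 1.55), Hdc (3.09 ± 1.43), Ddc (2.68 ± 3.43), Slc6a4 (1.94 ± 0.645) and Hal (0.390 ± 0.446). In flox libraries it was Slc18a2 (15.2 ± 13.0 TPM), Maoa (14.4 ± 4.29), Hnmt (13.1 ± 3.25), Maob (6.89 ± 2.00), Hal (4.57 ± 1.37), Ddc (1.53 ± 0.662), Hdc (0.627 ± 0.320), Slc6a4 (0.416 ± 0.418) and Tph1 (0.219 ± 0.154; SD, n = 7 in each genotype). Tph1 was the last gene in flox and the fourth in knockout, and Hal the fifth in flox and the last in knockout. In the knockout order the neighbours that differed by more than the larger SD of the pair were Tph1 and Maob, Maob and Hdc, and Slc6a4 and Hal. In the flox order they were Hnmt and Maob, Maob and Hal, Hal and Ddc, and Ddc and Hdc. The top 3 genes (Slc18a2, Maoa and Hnmt) did not differ beyond their spread in either genotype. The place of Slc18a2 rests on batch 2, where it averaged 45.1 ± 24.1 TPM in knockout (n = 3) and 24.8 ± 7.41 TPM in flox libraries (n = 4). In batch 1 it averaged 4.56 ± 1.09 TPM in knockout (n = 4), below Maoa, Hnmt and Tph1, and 2.49 ± 0.282 TPM in flox libraries (n = 3), below Hnmt, Maoa, Maob and Hal.

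**Figure D2:**
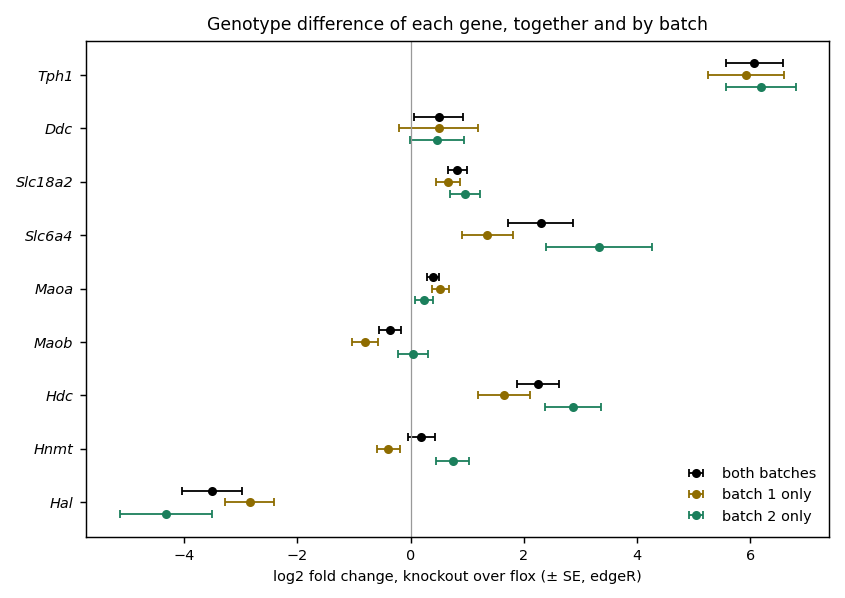
Log2 fold change of each gene, knockout over flox, with SE, over both batches and within each batch (edgeR, estimated counts). Tph1 (6.07), Hdc (2.26), Slc6a4 (2.30) and Slc18a2 (0.83) lie above 0 and Hal (-3.51) below 0 in both batches, while Maob and Hnmt lie on opposite sides of 0 in the 2 batches.

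No gene of the list was called for a genotype difference that varied between batches. edgeR's test of the interaction of batch and genotype, which the choice of genes did not use, called 1.03% of the 15654 genes and 0 of the 9 (DESeq2 also called 0 of the 9). At an unadjusted p under 0.05, edgeR gave 13.9% of all genes. Hnmt had the smallest p of the list: its difference was 1.10 ± 0.38 larger on the log2 scale in batch 2 than in batch 1 (adjusted p = 0.181). Maob had an interaction of 0.82 ± 0.35 (adjusted p = 0.310), Slc6a4 of 1.91 ± 1.02 (adjusted p = 0.444) and Hdc of 1.19 ± 0.67 (adjusted p = 0.475). For Tph1 the interaction was 0.22 ± 0.96 and for Hal -1.53 ± 0.94, with adjusted p-values of 0.964 and 0.529. With errors near 1 on the log2 scale, only large differences between the batches could have been detected for Tph1, Slc6a4 and Hal.

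The other genes of the 2 pathways, which the rule did not name, had log2 fold changes between -1.32 (Aoc3) and 1.62 (Slc18a1). Of 48 listed genes, 46 were in the mouse table and 32 were tested; edgeR called 4 higher and 2 lower in knockout, which is 18.75%, beside 15.5% of all genes tested. Their median log2 fold change was -0.06, beside -0.01 for all genes tested. The 4 genes that rose were Slc18a1, Gch1, Qdpr and Afmid, and the 2 that fell were Pcbd2 and Aldh2.

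In the list of serotonin and biopterin genes, 3 of 10 tested members rose and 1 fell. Of all genes tested, 7.97% were called higher and 7.51% lower. The other 2 members (Aanat and Asmt, which turn serotonin into melatonin) were not tested. Slc18a1, the vesicular carrier of endocrine cells, measured 1.53, 1.43, 1.14, 0.640, 0.712, 1.23 and 1.49 TPM in knockout libraries 1 to 7, against 0.538, 0.499, 0.558, 0.412, 0.581, 0.540 and 0.237 TPM in flox libraries 1 to 7. The lowest knockout library lay above the highest flox library, although levels were low, and the log2 fold change was 1.62 ± 0.36 (adjusted p = 0.00807). It was not called without knockout libraries 6 and 7 (1.39 ± 0.49, adjusted p = 0.0831). Slc18a2 still made up most of the vesicular carrier transcripts: 75.0% to 83.2% in knockout against 81.5% to 83.4% in flox libraries of batch 1, and 95.2% to 99.0% in knockout against 97.5% to 99.0% in flox libraries of batch 2.

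Tph1 needs tetrahydrobiopterin as a cofactor, which Gch1 begins to synthesise and Qdpr and the Pcbd proteins recycle. For Gch1, batch 1 gave 3.42, 5.54, 5.02 and 4.36 TPM for the knockout libraries and 4.12, 2.91 and 3.41 TPM for the flox libraries. Batch 2 gave 2.46, 1.73 and 1.38 TPM for the knockout libraries and 0.561, 1.14, 0.580 and 1.04 TPM for the flox libraries. The groups overlapped in batch 1 and not in batch 2, and the log2 fold change was 0.74 ± 0.23 (adjusted p = 0.0373). This call was lost when any one of knockout libraries 2, 5, 6 and 7 or flox libraries 3, 4, 6 and 7 was left out, with adjusted p-values from 0.0100 to 0.662 over all alternatives. Qdpr averaged 191 ± 35.8 TPM in knockout and 138 ± 28.3 TPM in flox libraries and rose by 0.43 ± 0.10 (log2 fold change; adjusted p = 0.00807; 0.0667 with limma on log2(TPM + 1)). Pcbd2 averaged 82.0 ± 11.0 TPM in knockout and 108 ± 11.5 TPM in flox libraries and fell by 0.42 ± 0.12 (log2 fold change; adjusted p = 0.0312; SD, n = 7 each). The call of Pcbd2 was lost without knockout library 3 or 5, without flox library 2, 4 or 6, and without knockout libraries 6 and 7 together (adjusted p = 0.0552 to 0.0814 in edgeR). Gchfr, which restrains Gch1, had the lowest p among the uncalled members (log2 fold change -0.43 ± 0.31, adjusted p = 0.366).

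In the list of amine uptake and breakdown, 1 of 11 tested members fell and none rose. Of all genes tested, 7.51% were called lower and 7.97% higher, so nothing particular to the list is read from this count. Aldh2, which oxidises the aldehyde that monoamine oxidase leaves, averaged 42.2 ± 16.3 TPM in knockout and 63.8 ± 27.0 TPM in flox libraries (SD, n = 7 each) and fell by 0.45 ± 0.12 (log2 fold change; adjusted p = 0.0210). That call was lost without knockout library 5 or without flox library 2 or 3 (adjusted p = 0.0506 to 0.0553 in edgeR). Aoc3, a surface amine oxidase, had a log2 fold change of -1.32 ± 0.45 (adjusted p = 0.0600) and Slc22a3, an organic cation carrier, one of -1.14 ± 0.41 (adjusted p = 0.0687). Of 7 fibroblast markers, 6 also fell in knockout, and the summed TPM of the list was 808 to 1590 in knockout against 1625 to 2456 in flox libraries of batch 1, and 975 to 1868 in knockout against 2650 to 3563 in flox libraries of batch 2. The part of fibroblasts in the values of Aldh2, Aoc3 and Slc22a3 was not tested.

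None of the 5 tested genes of histidine use was called, beside 15.5% of all genes tested, so that nothing particular to the list is read from it. Cndp2, a peptidase that frees histidine from carnosine, had a log2 fold change of 0.30 ± 0.12 (adjusted p = 0.107), and Slc15a4, a lysosomal histidine carrier, one of 0.34 ± 0.16 (adjusted p = 0.170). Uroc1, Amdhd1 and Ftcd, the enzymes that follow Hal in histidine breakdown, were not tested, since their counts were too low. Among 6 tested genes of tryptophan use, Afmid, which acts in the kynurenine route, averaged 6.11 ± 2.86 TPM in knockout and 4.32 ± 2.49 TPM in flox libraries (SD, n = 7 each) and rose by 0.80 ± 0.20 (log2 fold change; adjusted p = 0.0133). Slc3a2, a subunit of the large amino acid carriers, had a log2 fold change of 0.27 ± 0.10 (adjusted p = 0.0911), and Slc16a10, an aromatic amino acid carrier, one of 0.75 ± 0.47 (adjusted p = 0.295). None of the 6 called pathway genes was called within batch 1 or batch 2 alone, and all 6 kept the sign of their fold change in every alternative run.

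**Figure D3:**
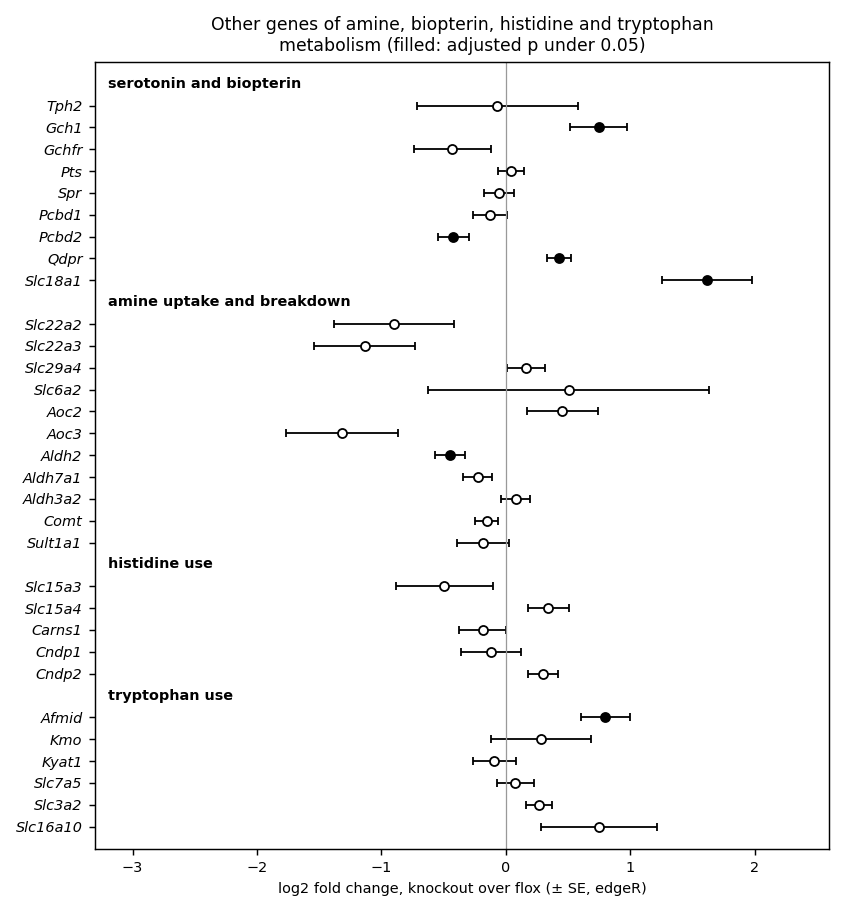
Log2 fold change, knockout over flox, with SE, of 31 of the 32 tested genes of the 4 pathway lists (edgeR, estimated counts, 7 knockout and 7 flox libraries); filled points have an adjusted p under 0.05. The 4 filled points to the right of 0 are Gch1, Qdpr, Slc18a1 and Afmid and the 2 to the left are Pcbd2 and Aldh2; most open points lie within 0.5 of 0.

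Cell types that hold these amines elsewhere were followed through their markers. The mast cell list (10 genes, 9 in the table and 8 tested) had 0 members higher and 2 lower in knockout, beside 7.97% higher and 7.51% lower of all genes tested, and its summed TPM was 8.39 to 17.9 in knockout against 12.1 to 16.0 in flox libraries of batch 1, and 16.5 to 30.3 in knockout against 15.9 to 37.1 in flox libraries of batch 2. The 2 lower members were the mast cell proteases Mcpt4 (-2.38 ± 0.66, adjusted p = 0.0229) and Cma1 (-2.70 ± 0.64, adjusted p = 0.0103). Neither of these 2 passed the filter in batch 1 alone. Cpa3, another defining mast cell protease, stood at 0.0314 to 1.04 TPM in knockout and 0.327 to 1.65 TPM in flox libraries. Mrgprb2 was at 0 in every knockout library of batch 2. Of the 6 members not called, Kit (0.41 ± 0.19) and Fcer1a (1.18 ± 1.01) had log2 fold changes above 0. Those of Cpa3 (-1.31 ± 0.57), Ms4a2 (-1.45 ± 0.87), Hpgds (-0.27 ± 0.35) and Gata2 (-0.08 ± 0.27) lay below 0. The part of mast cells in the Tph1 and Hdc values was not tested. Neither the 2 tested basophil genes nor the 6 platelet genes were called, with basophil sums of 3.15 to 7.42 TPM in knockout against 0.408 to 12.7 TPM in flox libraries of batch 1, and 3.64 to 4.77 TPM in knockout against 1.10 to 4.86 TPM in flox libraries of batch 2. Platelet sums were 38.3 to 260 TPM in knockout against 127 to 290 TPM in flox libraries of batch 1, and 74.5 to 140 TPM in knockout against 131 to 210 TPM in flox libraries of batch 2.

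Neutrophil markers, like Hdc, were higher in knockout libraries. Of 10 neutrophil genes, 9 rose in knockout (median log2 fold change of the 10, 3.16), beside 7.97% of all genes tested called higher. Their summed TPM was 4756 to 16288 in knockout against 525.7 to 1746 in flox libraries of batch 1, and 1389 to 2479 in knockout against 123 to 261 in flox libraries of batch 2. The groups of this sum did not overlap within a batch. Knockout library 3 had both the highest neutrophil sum and the highest Hdc of all mouse libraries, and without it the log2 fold change of Hdc was 2.11 ± 0.39. The other knockout libraries did not rank alike in both values: library 1, with a neutrophil sum of 4875 TPM, had the lowest Hdc (1.53 TPM), and libraries 5 and 7, with sums of 2265 and 2479 TPM, had 3.92 and 3.58 TPM. Neutrophil sums were lower in knockout libraries of batch 2 than of batch 1. Mean Hdc of the knockout libraries was 4.83 CPM in batch 2 and 6.63 CPM in batch 1, but the latter rests on library 3 (12.2 CPM). Libraries 1, 2 and 4 of batch 1 had 3.29, 5.39 and 5.61 CPM, and libraries 5 to 7 of batch 2 had 5.69, 3.77 and 5.02 CPM. By TPM the knockout ranges of Hdc overlapped between batches (2.11 to 3.92 in batch 2, 1.53 to 5.74 in batch 1). Among flox libraries, library 3 had both the highest neutrophil sum (1746 TPM) and the highest Hdc (1.11 TPM). The part of neutrophils in the Hdc result was not tested.

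**Figure D4:**
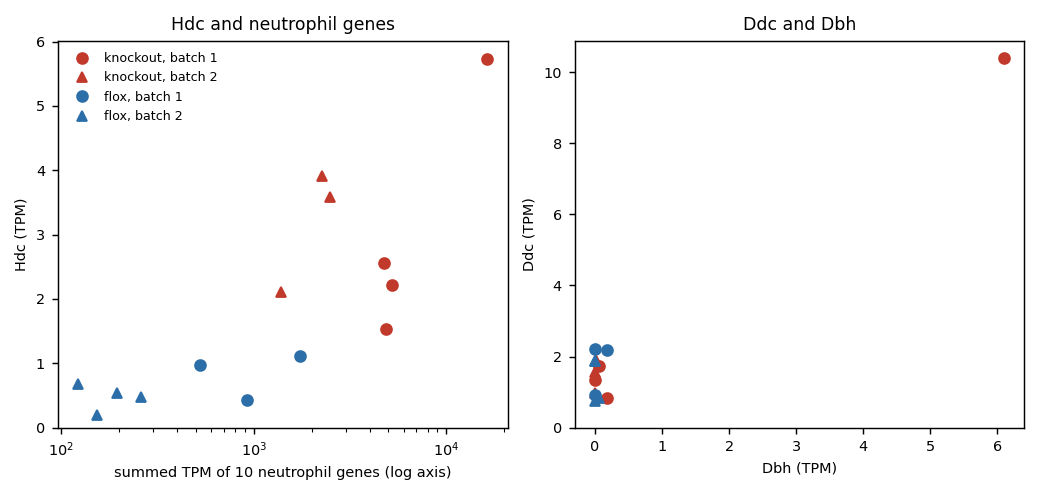
Left, Hdc TPM against the summed TPM of 10 neutrophil genes (log axis) in the 14 mouse libraries; right, Ddc TPM against Dbh TPM; points are libraries, coloured by genotype and shaped by batch. Knockout library 3 is the highest point on both axes at left (5.74 TPM of Hdc), and knockout library 2 stands alone at right with 10.4 TPM of Ddc and 6.10 TPM of Dbh.

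Hal is known from liver and epidermis, where it makes urocanate. The keratinocyte list (10 genes, 9 in the table and 6 tested) summed to 9.86 to 13.9 TPM in knockout against 19.5 to 53.8 TPM in flox libraries of batch 1, and to 17.1 to 19.2 TPM in knockout against 19.8 to 51.2 TPM in flox libraries of batch 2. Within it Krtdap fell (-4.00 ± 0.56, adjusted p = 0.000252) while Krt14 rose (3.18 ± 0.49, adjusted p = 0.000514), and Krt5, the partner of Krt14 in basal keratinocytes, was at 0 in 13 of 14 libraries. Krtdap stood at 0.873 to 2.40 TPM in knockout and at 9.44, 44.3, 21.6, 39.6, 4.89, 17.2 and 14.5 TPM in flox libraries 1 to 7. In flox libraries 2 and 4 it made up 44.3 of 53.8 and 39.6 of 51.2 TPM, so the highest sums were mostly Krtdap. The list had 1 member called higher and 1 lower, beside 7.97% higher and 7.51% lower of all genes tested. The 4 others were not called: Krt1 (-0.25 ± 0.33), Krt10 (-0.10 ± 0.21), Sfn (0.24 ± 0.31) and Trp63 (-0.04 ± 0.61). The median log2 fold change of the 6 was -0.07. The hepatocyte list summed to 2.14 to 8.40 TPM in knockout against 2.65 to 4.87 TPM in flox libraries of batch 1. Its batch 2 sums were 6.13 to 24.8 TPM for knockout and 1.97 to 4.19 TPM for flox, without overlap. Neither of its 2 tested genes was called between genotypes over both batches. Serpina1a, 1 of the 2, was called by edgeR for the interaction of batch and genotype (11.92 ± 1.54, log2, adjusted p = 0.00363). A fit to batch 2 alone called Serpina1a as well (11.01 ± 1.29, adjusted p = 0.00308). Serpina1a was at 0 in every flox library of that batch, so the size of these values is not read. Ttr, the other gene, was called in neither test. The part of skin or liver cells in the Hal result was not tested.

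Sensory neuron markers, which define the ganglion, were abundant in all mouse libraries. Their summed TPM was 4210 to 6922 in knockout against 2698 to 4449 in flox libraries of batch 1, and 5552 to 7262 in knockout against 3789 to 4797 in flox libraries of batch 2, and 4 of 8 rose in knockout. Beside this count and those that follow, 7.97% of all genes tested were called higher and 7.51% lower. Sympathetic neuron markers summed to 39.4 to 110 TPM in knockout against 34.0 to 75.0 TPM in flox libraries of batch 1, and to 56.6 to 104 TPM in knockout against 163 to 272 TPM in flox libraries of batch 2, and in the flox libraries of batch 2 most of it was Th. Only Npy rose among the 4 tested sympathetic genes, and Dbh, Phox2a and Hand2 were among those too low to test. Of 5 serotonergic neuron genes, Fev, which defines that lineage, was at 0.165 TPM or less in every library, and 1 of the 4 tested genes rose: Htr1a, a serotonin receptor, ranged over 1.51 to 3.85 TPM in knockout and 0.346 to 1.12 TPM in flox libraries (log2 fold change 2.05 ± 0.24, adjusted p = 4.56e-05). The part of these shifts in the levels of the amine genes was not tested.

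The genes whose levels were most like those of Tph1, Hdc and Hal over the 14 mouse libraries are named as a description, by Pearson's r of log2 CPM with each batch centred on its own mean. All libraries share the genotype difference, so genes with a like difference rank high. For Tph1 they were Cyp26a1 (r = 0.980), which degrades retinoic acid, Tifa (r = 0.976), Galnt6 (r = 0.974), Accsl (r = 0.969) and Fam210b (r = 0.968). Cyp26a1 averaged 53.5 TPM in knockout and 0.115 TPM in flox libraries, and Tifa, an adaptor of innate immune signalling, 58.5 TPM in knockout and 7.02 TPM in flox libraries. For Hdc they were Myd88 (r = 0.953), the adaptor of Toll-like receptors, Cd177 (r = 0.952), a neutrophil surface protein, Chil3 (r = 0.938), Ap1s1 (r = 0.931) and Glrx (r = 0.931). Cd177 averaged 13.2 TPM in knockout and 0.758 TPM in flox libraries, and Myd88 14.2 TPM in knockout and 7.85 TPM in flox libraries. For Hal they were Otoa (r = 0.971), which encodes the inner ear protein otoancorin, Cdk15 (r = 0.951), Frzb (r = 0.941), a secreted Wnt antagonist, Rnf112 (r = 0.939) and Pik3r2 (r = 0.934). Otoa averaged 0.729 TPM in knockout and 11.4 TPM in flox libraries.

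In the monkey the comparison asks whether the same genes differ in ganglia of SADBE-treated skin from those of vehicle-treated skin. Before the values, some libraries stood apart from their labels. A chi-square per gene of the counts, which sampling noise alone would bring to about 1, was 27.2 between SADBE libraries 2 and 3, 58.9 between SADBE library 2 and vehicle library 3, and 119 between SADBE library 3 and vehicle library 3, against 281 to 562 for all other pairs. These 3 libraries of both groups were thus closer to each other than to the rest. Vehicle library 1 had a neutrophil sum of 3413 TPM, against 41.8 to 658 TPM in the other 5 libraries, and a sensory neuron sum of 263 TPM, against 791 to 1071 TPM. Totals were 9.02 to 22.4 M counts in SADBE and 13.7 to 27.1 M counts in vehicle libraries.

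No gene of the list was called between SADBE and vehicle ganglia. edgeR's quasi-likelihood test called 0% of 17988 tested genes (3.06% at an unadjusted p under 0.05; DESeq2 called 28 genes, none of the list). TPH1, SLC18A2, MAOB, HDC and HNMT were tested, and each had an adjusted p of 0.999. DDC, SLC6A4 and HAL were too low to test.

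TPH1 stood at 3.39, 8.15 and 2.03 TPM in SADBE libraries 1 to 3, against 0.846, 0.432 and 4.70 TPM in vehicle libraries 1 to 3. HDC stood at 1.54, 4.61 and 2.87 TPM in SADBE libraries, against 0.487, 0.432 and 3.41 TPM in vehicle libraries. For both enzymes vehicle library 3 lay within the SADBE range and the other vehicle libraries lay below it. The log2 fold change was 1.01 ± 1.02 for TPH1 and 0.92 ± 0.98 for HDC. Without vehicle library 3 it was 2.86 ± 0.88 for TPH1 and 2.82 ± 0.81 for HDC, again not called. Those were the largest values when 1 library was left out, and the smallest were 0.17 for TPH1 and 0.41 for HDC.

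SLC18A2 stood at 4.20, 24.0 and 19.6 TPM in SADBE libraries, against 2.95, 3.26 and 30.9 TPM in vehicle libraries, so that SADBE libraries 2 and 3 and vehicle library 3 were high and the rest low. Its log2 fold change was 0.20 ± 1.07, and 2.54 ± 0.81 without vehicle library 3; its sign turned when SADBE library 2 or vehicle library 1 or 2 was left out (-0.29, -0.30 and -0.29). MAOB stood at 12.7, 15.5 and 13.9 TPM in SADBE libraries, against 30.1, 25.8 and 6.46 TPM in vehicle libraries. Its log2 fold change was -0.50 ± 0.53 (-0.90 ± 0.44 without vehicle library 3). Leaving out 1 library at a time gave -0.90 to -0.08. HNMT stood at 5.86, 6.26 and 6.53 TPM in SADBE libraries, against 6.59, 3.14 and 3.18 TPM in vehicle libraries, and its log2 fold change was 0.51 ± 0.48. The 2 vehicle values near 3 TPM lay below all SADBE values and the third above them.

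The remaining genes were at the limit of detection. SLC6A4 stood at 0.469, 0.0669 and 0.200 TPM in SADBE libraries, against 0, 0.102 and 0.166 TPM in vehicle libraries. DDC had 0, 0 and 4 estimated counts in SADBE libraries, against 0, 1 and 0 in vehicle libraries. HAL had 0 counts in all SADBE libraries, which allows up to 0.134 to 0.333 CPM, against 3, 8 and 0 counts in vehicle libraries, so no fold is given. Of the other pathway genes none was called, out of 8, 7, 4 and 11 tested in the 4 lists. The lowest p-values among them belonged to KMO (log2 fold change -2.87 ± 0.68) and IDO1 (-2.50 ± 0.85), both enzymes of the kynurenine route, each with an adjusted p of 0.999 in edgeR. KMO stood at 0.575, 0.947 and 0.787 TPM in SADBE libraries, against 2.33, 11.1 and 4.91 TPM in vehicle libraries.

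**Figure D5:**
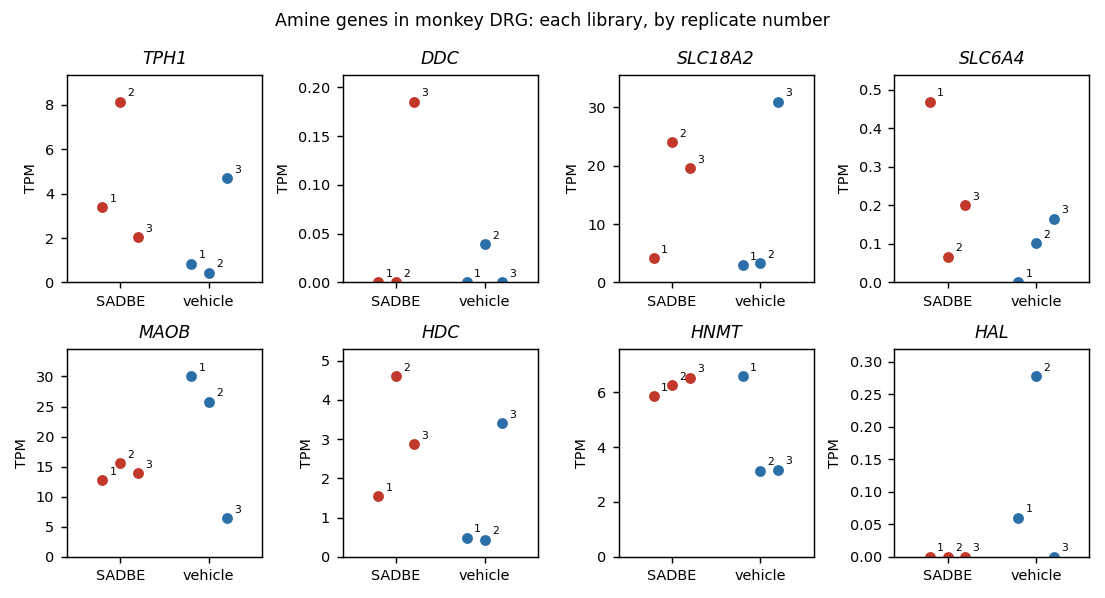
Deposited TPM of the 8 genes of the list found in the monkey table, in SADBE and vehicle libraries, each point numbered by its replicate. Vehicle library 3 lies among the SADBE libraries in TPH1 (4.70 TPM) and HDC (3.41 TPM) and above all of them in SLC18A2 (30.9 TPM), and vehicle libraries 1 and 2 lie low in these 3 genes.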

How the data were processed

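Total RNA of fresh frozen ganglia was purified with a Direct-zol kit, per the labels' protocols; strand is not given. The authors deposited, for each species, a table of estimated counts per gene and a table of TPM per gene. Per the submitters' processing notes kallisto was used and GRCm38 is named, also on the monkey samples, with no kallisto version. Estimated counts were rounded. A mouse row that names no gene (0.0785% to 0.186% of counts) was left out.

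Genes passed filterByExpr of edgeR 4.0.16 (minimum count 10, minimum total 15) in R 4.3.3, were scaled by TMM and tested with the quasi-likelihood test, with batch as a term in mice. SE come from the F statistic; a prior count of 2 was used. Each library is a replicate; how many animals it holds is not in the labels, so p-values reflect library spread, which may be technical. DESeq2 1.42.0, limma 3.58.1 on log2(TPM + 1) and leaving out libraries were alternatives. The test was also run on simulated counts with the same spread for every gene and changes placed only in well-counted genes. That run cannot speak for genes with few counts in a group or for the larger spread of the real libraries. No pair of libraries was a copy of another (chi-square per gene at least 20.6 in mice).

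The members, the pathway lists, the marker lists and the named genes were chosen with earlier results of these data known. Named genes are all members, the called pathway genes with up to 2 uncalled ones per list by lowest p, and for Tph1, Hdc and Hal the 5 genes most like each, among those averaging 1 TPM or more in one genotype with an official symbol. Other genes named beside a result, and the monkey genes KMO and IDO1, were chosen after their values were seen. A gene that the rule also names is not reported here. Coordinates are from GENCODE M21 and promoters from RefSeq, which matched 8 of the 9 symbols.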

Additional observations from a re-analysis of the deposited data

Results flagged for a closer look

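In a group of 4 to 10 libraries, the highest or lowest value was set against Dixon's 95% critical value, which chance passes in about 1 in 20 groups. Ddc in knockout library 2 stood at 10.4 TPM, far from the others both among the 7 knockout libraries (gap over range 0.888) and among the 4 of batch 1 (0.904). Slc18a2 in knockout library 5 stood at 72.8 TPM, apart from the other 6 knockout libraries (gap over range 0.574), which pools batches whose Slc18a2 levels differ several fold.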

How the results depend on the processing

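With batch 1 alone 273 genes were called between knockout and flox. These held 2 of the 9 amine genes and 0 of the other pathway genes. Batch 2 alone called 2085 genes, 5 amine genes and 0 pathway genes. The cause of this difference was not tested. The amine genes were chosen on this contrast, so nothing is read from their counts, here or below. Without a batch term 564 genes were called, with 3 amine genes and 1 pathway gene. Leaving out 1 library at a time gave 1587 (without knockout library 5) to 3108 genes, 5 to 6 amine genes and 3 to 8 pathway genes between genotypes, 50 to 445 genes and 0 to 1 pathway genes for the interaction, and 0 genes in the monkey. Without knockout libraries 6 and 7, an alternative chosen after seeing the data, 3 pathway genes were called. DESeq2 called 719 genes and 2 pathway genes for the interaction and 28 genes in the monkey; the cause was not tested. Signs turned, none with a call, for the interactions of Ddc (-0.35 to 1.05), Slc18a2 (-0.14 to 0.43) and Tph1 (-0.73 to 0.81) and for SLC18A2 in the monkey (-0.30 to 2.54), and over all alternatives for the genotype differences of Hnmt (-0.39 to 0.74), Maob (-0.81 to 0.04) and Ddc (-0.02 to 0.63). Calls also lost were those of Qdpr under limma, Afmid under the replicate block (adjusted p = 0.0655 in edgeR) and Slc18a1 without knockout libraries 6 and 7 (adjusted p = 0.0831).

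Deviations of same-numbered libraries correlated at -0.130 to 0.147 in mice and -0.312 to 0.233 in monkeys. Differently numbered libraries were not set beside them, so these values cannot decide whether replicate numbers pair the samples. With the replicate block 2103 mouse genes, 5 amine genes and 6 pathway genes were called, and 0 monkey genes. Depth limits Tph1 in flox, Hal in knockout and DDC, SLC6A4 and HAL in the monkey.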
